A study of Caenorhabditis elegans with 4 samples.

Results

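NFYA-1 sites on chromosome III of Caenorhabditis elegans are described here. The members are all peaks that the authors' combined peak list places on chromosome III, 332 of 1333 peaks in the whole list. They were chosen by the chromosome column alone, and no q-value or width was used. The list for ChIP replicate 1 held 147 of its 547 sites on III, and the list for ChIP replicate 2 held 180 of its 695.

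NF-Y is a transcription factor of 3 kinds of subunit, and NFYA-1 is one of the worm's A subunits. The B and C subunits pair through histone-like folds, and the A subunit makes the sequence-specific contact with the CCAAT box of promoters. In C. elegans, NF-Y is known for repressing the Hox gene egl-5, which specifies posterior cell fates. The autosomes of this worm have a gene-dense centre with little recombination, flanked by arms with more repeats and more recombination.

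All samples came from strain OP404, collected as young adult hermaphrodites grown at 20 °C and fixed with 2% formaldehyde. The strain carries the mutant allele unc-119(ed3), which the labels place on III, and the integrated transgene wgIs404, which holds nfya-1 fused to TY1, GFP and a 3xFLAG tag beside a wild-type copy of unc-119. The 2 ChIP samples were precipitated through GFP, and each has an input sample from the same lysate. All 4 samples share this genotype and age, and the labels name no untagged strain. The transgene was introduced by particle bombardment, the sources used here give neither its copy number nor its place of insertion, and the labels name no mutation of the worm's own nfya-1 gene. Whole animals were used, so a site bound in few cells and a site bound weakly in many cells cannot be told apart. The labels leave unsaid whether separate cultures were used for the replicates, so the spread between them may be technical.

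Each peak has a position on the genome build WS180 and a q-value, the false discovery rate of PeakSeq, given here as −log10 q so that a higher value means stronger evidence. The weakest −log10 q on III was 3.96 in the combined list, 4.33 in replicate 1 and 4.12 in replicate 2, and the lists reached 241, 136 and 171. Read depth is unknown, so a difference in q between lists is not a difference in binding. All 147 replicate 1 sites and all 180 replicate 2 sites on III overlapped a combined peak by at least 1 bp, so the combined list holds every site of the chromosome seen in either replicate. No genome or annotation of WS180 was used, so sites are named by position, no gene is assigned to them and no sequence is shown.

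The strongest NFYA-1 site of the whole combined list lay on chromosome III. That site spanned 8416863 to 8418143. Its −log10 q was 241 in the combined list, 128 in replicate 1 and 171 in replicate 2. It was placed alike in both replicates, with widths of 1184 bp and 1203 bp, and its centre stood at 61.5% of the chromosome's span. The flanking sites were also found in both replicates. The site at 8411911 to 8412460 had values of 25.4 in the combined list, 11.4 in replicate 1 and 10.98 in replicate 2. The site at 8424797 to 8425480 had 44.4 in the combined list, 23.1 in replicate 1 and 28.9 in replicate 2. The 3 sites rank 23, 1 and 8 on III from left to right, and all 3 were single peaks in every list.

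The second strongest site of III lay near its left end, at 1617940 to 1619611. Its −log10 q was 143 in the combined list, 136 in replicate 1 and 139 in replicate 2. Both replicates thus gave nearly equal values there, and the combined list stood only slightly above them. It was the only one of the 25 strongest sites of III in the left outer 25% of the span. Below these strongest sites, −log10 q dropped to 70.1 in the combined list at 4281733 to 4282613, with 32.2 in replicate 1 and 46.3 in replicate 2. The site at 9570745 to 9571149 had almost the same combined value, 69.9, with 37.3 in replicate 1 and 48.7 in replicate 2. It was narrow, at 405 bp, and stood apart, with its nearest neighbour 24.2 kb away. The site at 3866834 to 3867768 followed with 56.9 in the combined list, 31.4 in replicate 1 and 34.9 in replicate 2.

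The rest of the centre held further strong sites. At 7720801 to 7721249 the −log10 q was 41.3 in the combined list, 18.4 in replicate 1 and 19.6 in replicate 2. At 7854306 to 7854826 it was 39.3 in the combined list, 16.4 in replicate 1 and 27.3 in replicate 2. These neighbours in rank differed in how well the replicates matched, since replicate 2 stood well above replicate 1 only at the second. The most isolated strong site was at 6971838 to 6972236, with 29.7 in the combined list, 12.7 in replicate 1 and 16.2 in replicate 2, and with 181.5 kb to the nearest other peak. Others of the 25 in the centre began at 8799693, 4475413, 8528829, 3456214, 10096276, 8903969, 4899242 and 9618767, with combined values from 38.8 down to 23.1.

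The right outer 25% of the span held 7 of the 25 strongest sites. The highest, at 10758931 to 10759433, had values of 47.7 in the combined list, 24.02 in replicate 1 and 32.95 in replicate 2. The next, at 12344654 to 12345599, had 44.7 in the combined list, 22.4 in replicate 1 and 20.5 in replicate 2, and was 1 of 3 among the 25 at which replicate 1 had the higher value. The sites at 11828991, 12904882, 10844673, 13070242 and 13060852 had combined values of 37.5, 35.2, 30.5, 29.6 and 24.2. All 25 sites were found in both replicates, and at all 25 the combined value exceeded that of either replicate. Replicate 2 had the higher value at 22 of them. Widths ran from 378 to 2985 bp with a median of 684 bp, and 16 of the 25 had another combined peak less than 5 kb away. Among all 332 peaks of III, 146 did (44.0%).

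**Figure D1:**
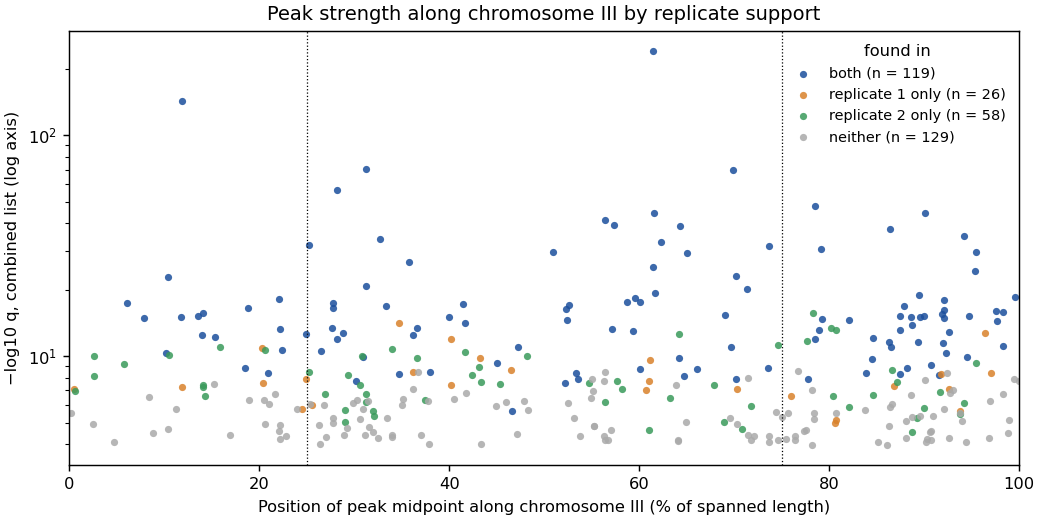
Each point is one of the 332 combined peaks on chromosome III, by the position of its midpoint (horizontal axis, percent of the span) and its −log10 q in the combined list (vertical axis, log scale). Colours show in which replicate lists the peak was found, and dotted lines mark 25% and 75% of the span. Every peak of 20 or more was found in both replicates, and no peak found in neither lies above 8.60.

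The first peak on the chromosome began at 25466, and the last ended at 13694414. That last position was taken as the length of the chromosome. The density was uneven. The sparsest whole 1 Mb segment was the first, with 9 combined peaks, 2 replicate 1 sites and 6 replicate 2 sites. The densest ran from 12 to 13 Mb, with 50 combined peaks, 24 replicate 1 sites and 27 replicate 2 sites. Between them, the segments from 3 to 4 Mb and from 4 to 5 Mb held 32 and 35 combined peaks, while the segment from 6 to 7 Mb held 12. A whole segment of III held a median of 24 combined peaks, against 12 in the other chromosomes.

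The densest segment was the same in all 3 lists, and no other whole segment of the genome held as many peaks in any of them. The order below it differed between the lists. The segment from 8 to 9 Mb came second in both replicates, with 18 sites in each, but had 24 combined peaks and the eighth place in the combined list. Its combined peaks had the highest median −log10 q of any whole segment of III, 11.2. Of these 24 peaks, 6 had a −log10 q of 20 or more, against 8.43% on III and 10.1% over all chromosomes. The segment from 4 to 5 Mb was second in the combined list with 35 peaks, of which 16 were found in neither replicate. The segment from 10 to 11 Mb had 16 such peaks of 29, and that from 7 to 8 Mb had 14 of 27. Over all chromosomes, 41.8% of combined peaks were found in neither replicate. Of the 13 densest whole segments of the genome in the combined list, III held 8. Compared with the mean of the other chromosomes, 12 of 13 segments of III were denser in the combined list, 12 in replicate 1 and 10 in replicate 2.

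**Figure D2:**
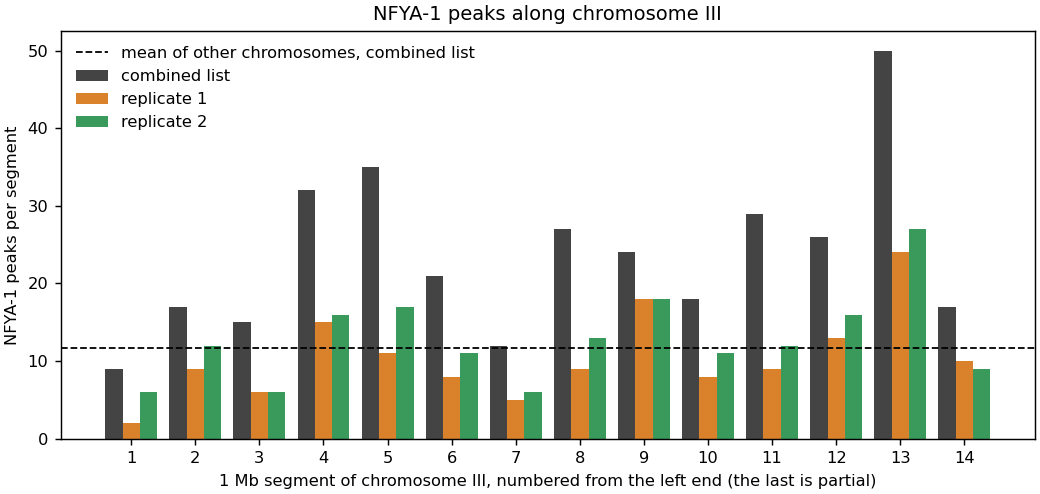
Bars give the number of NFYA-1 peaks (vertical axis) in each 1 Mb segment of chromosome III, numbered from the left end (horizontal axis), in the combined list, replicate 1 and replicate 2. The dashed line is the mean of whole segments on the other chromosomes in the combined list, 11.7. Segment 13 is the highest in all 3 lists, with 50, 24 and 27 peaks.

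The 50 peaks of the densest segment had a median −log10 q of 7.07, against 7.56 on III and 7.10 over all chromosomes. Of these 50 peaks, 21 were found in both replicates, 3 only in replicate 1, 6 only in replicate 2 and 20 in neither. A −log10 q of 20 or more was reached by 2 of the 50, against 8.43% on III and 10.1% over all chromosomes. The share found in both was 42.0%, against 35.8% on III and 32.6% over all chromosomes. Found in neither were 38.9% of all peaks on III and 41.8% over all chromosomes. Beside the sites at 12344654 and 12904882 named above, the strongest peaks of the segment lay at 12250109 to 12250806, at 12612246 to 12612901 and at 12033198 to 12034035. The first of these had values of 19.03 in the combined list, 9.92 in replicate 1 and 9.64 in replicate 2. The second had 17.9 in the combined list, 6.37 in replicate 1 and 13.8 in replicate 2, and the third had 16.9 in the combined list, 9.63 in replicate 1 and 6.55 in replicate 2. The median width in the segment was 377 bp, against 421.5 bp on III and 485 bp over all chromosomes. Of the 50 peaks, 1 was wider than 1000 bp, against 10.2% on III and 14.6% over all chromosomes. The 50 peaks were spread through the segment, with 25 in its first 500 kb and 25 in its second.

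At a finer scale, the 100 kb window from 12600001 to 12700000 held 9 combined peaks, 6 replicate 1 sites and 5 replicate 2 sites, the most of any window on III in the combined list. The windows starting at 4200001 and 11800001 held 8 combined peaks each. Of the 136 whole 100 kb windows of III, 21 held no combined peak (15.4%), against 347 of 856 (40.5%) on the other chromosomes. Windows with 5 or more peaks were 21 on III (15.4%) and 24 elsewhere (2.80%). The counts varied more than their mean in both, with a variance-to-mean ratio of 1.55 on III and 1.51 elsewhere.

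The centre of III was compared with its outer regions, since arms and centres of worm autosomes differ. The centre was taken as the middle 50% of the span, from 3.42 to 10.3 Mb, because arm boundaries of this build were not used here. Across all chromosomes, 53.5% of combined peaks lay in the centre. On III the centre held 165 of 332 peaks, which is 49.7% (exact 95% interval 44.2 to 55.2%), against 548 of 1001 (54.7%, 51.6 to 57.9%) on the other chromosomes. The difference of -5.05 percentage points missed the threshold in Fisher's exact test, two-sided (p = 0.113, adjusted p = 0.263). With X left out of the comparison, 56.3% of peaks on the other autosomes lay in the centre (Fisher's exact test, adjusted p = 0.114). With the middle 33.3% of the span in place of the middle 50%, III held 29.2% and the other chromosomes, with X, 36.9%. The adjusted p of Fisher's exact test was then 0.0271. The share on III depends on the dense segment from 12 to 13 Mb, which lies outside the centre: without it, 58.5% of the peaks on III were in the centre, a rise that leaving out outer peaks gives by construction. All adjusted p-values here are Benjamini-Hochberg values over 7 tests, and peaks along a chromosome are not independent, so the p-values may be too small.

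The outer regions of III were unlike each other. The left outer 25% held 52 combined peaks, or 15.2 per Mb, the centre 24.1 per Mb, and the right outer 25% held 115 peaks, or 33.6 per Mb. Both replicates had the same order, with 6.72, 10.2 and 15.8 sites per Mb in replicate 1 and 8.18, 13.3 and 17.8 in replicate 2. A fuller right end was also seen on chromosome II, which had 5.06, 11.7 and 16.5 combined peaks per Mb, while chromosome V had 10.6, 10.8 and 5.97. The lean to the right was noticed in the counts and was not tested. In each of its 3 regions III was denser than the same region of any other chromosome, and its sparsest region, at 15.2 per Mb, was exceeded elsewhere only by the centre of I and the right end of II.

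**Figure D3:**
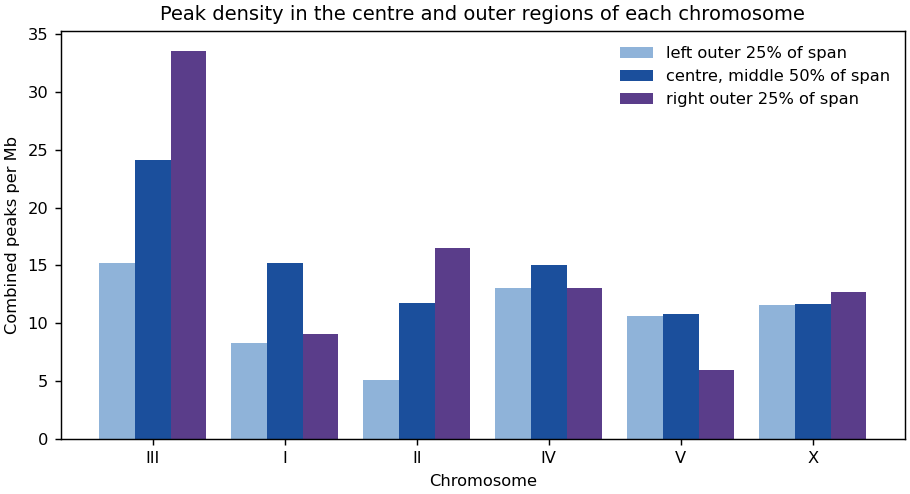
Bars give combined peaks per Mb (vertical axis) in the left outer 25%, the middle 50% and the right outer 25% of the span of each chromosome (horizontal axis). Chromosome III reads 15.2, 24.1 and 33.6 per Mb, and no other chromosome exceeds 16.5 in any region.

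The median −log10 q was 7.52 in the left outer region, 7.55 in the centre and 7.73 in the right outer region. The share of peaks found in both replicates was 32.7%, 35.2% and 38.3% in the same order. Peaks of 20 or more made up 3.85% of the left region (2 peaks), 11.5% of the centre (19 peaks) and 6.09% of the right region (7 peaks). Per Mb these were 0.584, 2.77 and 2.04 strong peaks, so the centre had the most strong sites per length, while the right region had the most peaks of any strength. The other chromosomes had strong peaks in the same order, with 0.792, 1.47 and 1.26 per Mb. Their shares of strong peaks were 7.98%, 11.5% and 11.2%.

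No difference in replicate support between III and the other chromosomes was established. Over the whole combined list, 32.6% of peaks overlapped a peak in both replicates. On III, 119 of 332 did (35.8%, 95% interval 30.7 to 41.3%), against 316 of 1001 elsewhere (31.6%, 28.7 to 34.5%). The odds ratio was 1.21 (95% interval 0.924 to 1.58), and the difference of 4.27 percentage points did not pass Fisher's exact test (p = 0.156, adjusted p = 0.274). A further 26 peaks of III were found only in replicate 1, 58 only in replicate 2 and 129 in neither (38.9%, against 42.8% elsewhere).

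Peaks of the 4 kinds differed in strength and width on III, as they must in part, since the lists come from the same libraries. The median −log10 q was 14.98 for peaks found in both replicates, 7.49 for those found only in replicate 1, 7.41 for those found only in replicate 2 and 5.17 for those found in neither. Their median widths were 518, 372.5, 580 and 365 bp. The strongest peak found in neither replicate lay at 10506817 to 10507125, 309 bp wide with a combined −log10 q of 8.60. Such peaks reached 8.47 to 8.96 on I, II and IV, 10.2 on X and 12.9 on V.

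The strongest peak found in a single replicate lay at 10719889 to 10720531. It had values of 15.7 in the combined list and 6.20 in replicate 2, and replicate 1 had no site there. Its counterpart for replicate 1 lay at 4754168 to 4754496, with 14.1 in the combined list and 5.59 in replicate 1. At both, the combined value was far above that of the single replicate. At the other extreme, the weakest peak found in both lay at 6383123 to 6383443, with 5.68 in the combined list, 4.92 in replicate 1 and 4.35 in replicate 2.

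Support followed combined strength closely, as it must in part, since the lists come from the same libraries. On III, all 28 peaks of 20 or more were found in both replicates (100%, exact 95% interval 87.7 to 100%), against 99.1% elsewhere. Of 83 peaks between 10 and 20, 66 were (79.5%, 69.2 to 87.6%), against 80.6% elsewhere, and none of the 83 was missing from both replicates. In the class from 7 to 10, both replicates held 24 of 75 peaks (32.0%, 21.7 to 43.8%), against 43 of 192 elsewhere (22.4%, 16.7 to 28.96%), and the intervals overlap. Of 81 peaks between 5 and 7 only 1 was (1.23%, against 1.77% elsewhere), and of 65 peaks under 5 none was, for which the exact 95% interval allows a share of up to 5.52%.

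Whether the replicates recovered each other's sites on III was asked directly. Among the 147 replicate 1 sites, 121 had a match in replicate 2 (82.3%, 75.2 to 88.1%), against 326 of 400 elsewhere (81.5%), where the share over all chromosomes was 81.7%. Among the 180 replicate 2 sites, 121 had a match in replicate 1 (67.2%, 59.8 to 74.02%), against 323 of 515 elsewhere (62.7%), with 63.9% over all chromosomes. Neither difference passed Fisher's exact test, with adjusted p = 0.901 and 0.375. The odds ratios were 1.06 (0.633 to 1.81) and 1.22 (0.840 to 1.78), and both intervals reach to either side of 1.

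At the 121 pairs of sites on III, midpoints lay a median of 22.0 bp apart, and 110 pairs lay within 200 bp (90.9%). Elsewhere the median was 29.5 bp, and 296 of 321 pairs lay within 200 bp (92.2%). Spearman's rho of −log10 q between replicates was 0.712 over the pairs on III and 0.733 over those elsewhere. Both are descriptions, since pairs share the 2 libraries and are not independent. Replicate 2 had the higher value at 74 of 121 pairs (61.2%), against 222 of 321 elsewhere (69.2%). The median ratio of replicate 2 to replicate 1 was 1.05 on III (quartiles 0.898 and 1.32) and 1.20 elsewhere (0.955 and 1.49). Among the strongest sites replicate 2 was usually the higher, at 22 of the 25 named above.

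Individual sites still departed from it. The largest ratio, 3.17, was at the combined peak from 9618767 to 9620500, where replicate 1 had 6.34 and replicate 2 had 20.1. The smallest, 0.399, was at the replicate 1 site from 12331217 to 12331537, with 12.3 in replicate 1 and 4.90 in replicate 2. At all 119 combined peaks of III found in both replicates, the combined value was higher than that of either, by a median factor of 1.72 over the higher replicate. Elsewhere this held at 310 of 316 peaks, with a median factor of 1.63.

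**Figure D4:**
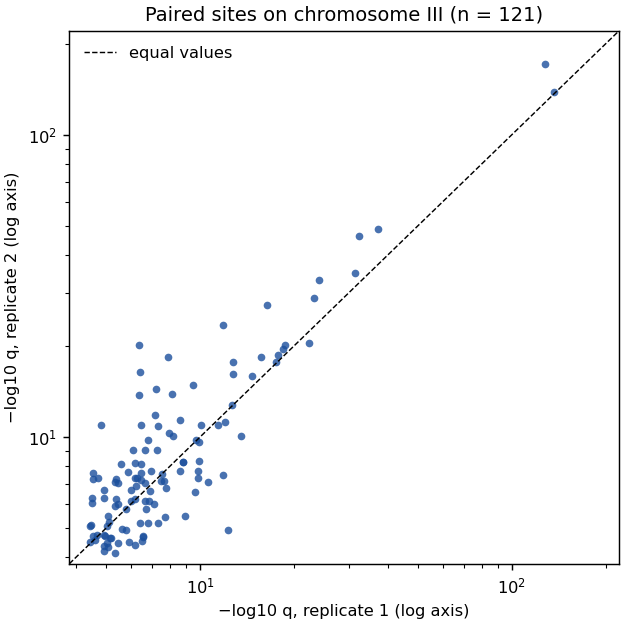
Each point is one of the 121 pairs of overlapping replicate 1 and replicate 2 sites on chromosome III, by −log10 q in replicate 1 (horizontal axis) and replicate 2 (vertical axis), both on log scales. The dashed line marks equal values, and 74 points lie above it.

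A difference in the share of strong peaks was not established. Over all chromosomes 10.1% of combined peaks had a −log10 q of 20 or more. On III 28 of 332 did (8.43%, 95% interval 5.68 to 11.96%), against 107 of 1001 elsewhere (10.7%, 8.84 to 12.8%). The odds ratio was 0.770 (0.479 to 1.20), and the difference did not pass Fisher's exact test (adjusted p = 0.350). With a limit of 10 the difference turned in sign, with 33.4% on III and 30.8% elsewhere (Fisher's exact test, adjusted p = 0.438). The median −log10 q was 7.56 on III and 6.96 elsewhere in the combined list, but 6.43 and 6.61 in replicate 1 and 6.24 and 6.82 in replicate 2.

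The median width of combined peaks was 421.5 bp on III (quartiles 344 and 675 bp), against 507 bp (372 and 785 bp) on the other chromosomes. In replicate 1 the medians were 412 bp on III and 499 bp elsewhere, and in replicate 2 they were 461.5 bp and 497 bp. In replicate 2, chromosomes II and V had narrower medians than III, 457.5 and 449 bp. X had the widest peaks of the combined list, with a median of 616 bp, and the other 4 chromosomes had medians of 461.5 to 491 bp, all above III. Peaks under 400 bp were 147 of 332 on III (44.3%), against 321 of 1001 elsewhere (32.1%). The other autosomes lay nearer to III, at 34.9% to 39.1%, and X had 13.3%.

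Broad peaks made up a smaller share of the peaks on III. Over all chromosomes, 14.6% of combined peaks were wider than 1000 bp. On III 34 of 332 were (10.2%, 95% interval 7.20 to 14.02%), the lowest share of the 6 chromosomes, against 161 of 1001 elsewhere (16.1%, 13.9 to 18.5%). Per Mb, III had 2.48 such peaks and the other chromosomes 1.88, so their share was lower but not their number per length. The odds ratio of the share was 0.595 (0.389 to 0.890), and the difference passed Fisher's exact test (p = 0.0092, adjusted p = 0.0322). The direction was the same in each replicate list. In replicate 1 the shares were 6.12% on III and 17.2% elsewhere (Fisher's exact test, adjusted p = 0.00283), and in replicate 2 they were 8.33% on III and 14.2% elsewhere (adjusted p = 0.176). Chromosome IV had 11.5% in replicate 1 and 9.45% in replicate 2. The adjusted p of Fisher's exact test no longer passed without the segment from 12 to 13 Mb (11.7% on III, adjusted p = 0.259), nor with X left out of the comparison (15.04% elsewhere, adjusted p = 0.125). Limits of 800 and 2000 bp, or a minimum −log10 q of 5, kept the direction, but Fisher's exact test then missed the threshold (adjusted p = 0.0522, 0.0583 and 0.0681).

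Of peaks found in both replicates, 15 of 119 on III (12.6%) were wider than 1000 bp, against 74 of 316 elsewhere (23.4%) and 53 of 242 on the other autosomes (21.9%). Among peaks found in neither, 9 of 129 on III (6.98%) were, against 47 of 428 elsewhere (10.98%). Wider than 3000 bp were 0 of 332 peaks on III and 18 of 1001 elsewhere, of which IV had 2 of its 245. The widest peak of III, at 2985 bp, fell just under that limit. These shares by kind of peak are given without a test.

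The 5 widest peaks of III were each compared across the lists. The widest, at 8799693 to 8802677, spanned 2985 bp at 38.8 in the combined list, and appeared as 2 sites in each replicate, of up to 7.89 in replicate 1 and 18.4 in replicate 2. The second, at 833580 to 836288, spanned 2709 bp with 17.4 in the combined list, and had 1 site of 4.41 in replicate 1 and 2 sites of up to 6.04 in replicate 2. The third, at 7722341 to 7724729, spanned 2389 bp with a combined value of 8.47 and was in neither replicate. Broad peaks were thus not all well supported. The remaining 2 lay close to each other near the right end, at 13060852 to 13063197 and at 13070242 to 13072291, with widths of 2346 and 2050 bp, and both were found in both replicates. Of the 34 peaks wider than 1000 bp, 19 lay in the centre, 6 in the left and 9 in the right outer region, and 23 had another peak less than 5 kb away. Of all 332 peaks of III, 165 lay in the centre, 52 in the left and 115 in the right outer region. Another peak less than 5 kb away was present for 146 of the 332 (44.0%).

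NFYA-1 peaks on III lay close together. The median gap to the next peak was 20.1 kb, against 44.3 kb on the other chromosomes. Over all chromosomes 19.9% of gaps were under 5 kb. On III 88 of 331 gaps were (26.6%, 95% interval 21.9 to 31.7%), against 176 of 996 elsewhere (17.7%, 15.4 to 20.2%). The odds ratio was 1.69 (1.24 to 2.28), and the difference passed Fisher's exact test (p = 0.000613, adjusted p = 0.00429). A denser chromosome has shorter gaps by construction. Relative to the mean gap of its own chromosome the values were close, with 23.6% of gaps on III and 22.99% elsewhere under 10% of that mean (Fisher's exact test, adjusted p = 0.901). With a limit of 2 kb the shares were 15.1% on III and 10.1% elsewhere (Fisher's exact test, adjusted p = 0.0574).

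In the replicate lists, gaps under 5 kb were 15.8% on III and 11.9% elsewhere in replicate 1 (Fisher's exact test, adjusted p = 0.350). In replicate 2 they were 19.6% on III and 11.4% elsewhere (Fisher's exact test, adjusted p = 0.0322). At a fixed 5 kb, a denser chromosome has more close gaps by construction, so these tests cannot separate close placing from density. Gaps under 10% of the mean gap of their own chromosome were 21.2% on III and 21.3% elsewhere in replicate 1. In replicate 2 they were 22.9% on III and 19.6% elsewhere, and these scaled shares were not tested. On III, 146 of the 332 peaks (44.0%) had another peak within 5 kb, against 31.6% elsewhere and 34.7% over all chromosomes. Density raises this share by construction too. The 146 peaks fell into 36 groups of 2 peaks, 15 of 3 and 7 of more. These peaks were wider than the rest, with a median of 570.5 bp, against 373 bp for peaks whose nearest neighbour was 5 to 50 kb away and 393 bp for those 50 kb or more away. Of the 3 kinds, 38.4%, 35.7% and 24.1% were found in both replicates. The other chromosomes had a like pattern, with median widths of 666, 454 and 457 bp and shares of 34.2%, 31.8% and 27.4%.

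The group of close peaks on III with the most members held 5 peaks over 7.88 kb, from 3029868 to 3037743, and groups of 4 peaks spanned up to 11.99 kb. Only 2 of them were found in the replicates. The peak at 3030989 to 3031607 had values of 18.2 in the combined list, 4.82 in replicate 1 and 10.96 in replicate 2, and the peak at 3033362 to 3034167 had 13.3 in the combined list, 7.72 in replicate 1 and 5.42 in replicate 2. The 3 others, at 3029868, 3034483 and 3037333, had combined values of 4.60, 4.23 and 4.86 and were absent from both replicate lists. The group thus consisted of a supported core of 2 sites with weak peaks on both sides. Among the other groups, the one from 4275634 to 4285159 contained the third strongest site of III and 3 more peaks, all found in replicate 2 and 2 of the 4 in replicate 1.

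Empty stretches on III were short in kb, as density shortens gaps by construction. The longest gap without a combined peak was 363 kb, from 6608426 to 6971837, against up to 921 kb elsewhere, and the isolated strong site at 6971838 follows it directly. The next longest gaps were of 285 kb from 355354, 266 kb from 5203068, 259 kb from 84744 and 244 kb from 836289, so 3 of the 5 lay near the sparse left end. Gaps of 100 kb or more were 29 of 331 on III and 299 of 996 elsewhere, with 328 of 1327 over all chromosomes. The mean gap was 40.7 kb on III, against 84.8 kb elsewhere and 104.6 kb on V, which held the gap of 921 kb. Whether empty stretches on III were short for its density was not tested. The peaks of III covered 191 kb in all, or 1.40% of the span, against 0.853% on the other chromosomes.

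**Figure D5:**
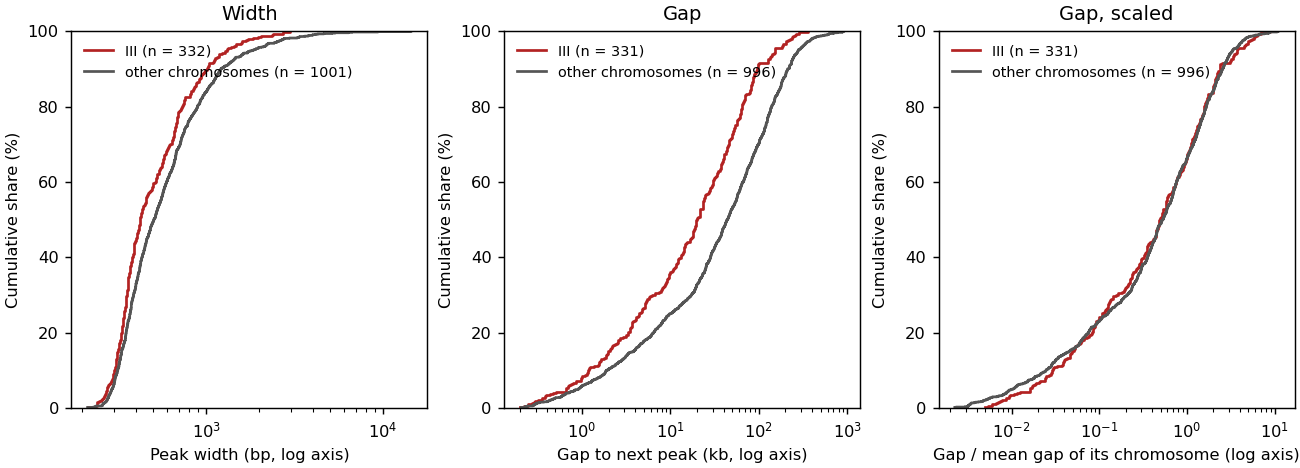
Curves give the cumulative share (vertical axis, percent) of combined peaks by width in bp, of gaps to the next peak in kb, and of gaps divided by the mean gap of their own chromosome (horizontal axes, log scale), for chromosome III and for the other chromosomes. III lies to the left in width (medians 421.5 and 507 bp) and gap (medians 20.1 and 44.3 kb), and the curves nearly coincide for scaled gaps.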

How the data were processed

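ChIP-seq peak lists were used for 2 ChIP samples and their combination. No values of the 2 inputs were used. Per the file headers and columns, the authors called peaks with PeakSeq on WormBase WS180 and deposited a q-value for each peak. Neither labels nor headers state how the lists were combined, which aligner and filters were used, or where q was limited, and since depth is unknown no precision beyond the q-value can be given.

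The q-values were taken as −log10. Replicate 1 lines are written 1, 2 or 3 times. Those written 2 or 3 times were used (147 sites on III), and those written 1 or 3 times were an alternative (146). Peaks sharing at least 1 bp were called overlapping. Gaps ran from the end of one peak to the start of the next, and pairs were one-to-one by largest overlap. The last peak end of any list was the length of a chromosome. III was compared with the other chromosomes by two-sided Fisher's exact tests, adjusted over 7 tests, with a threshold of 0.05. Intervals of shares are exact Clopper-Pearson 95% intervals and cover counting error only. Analyses ran in Python 3.11.15 with scipy 1.17.1, numpy 2.4.6 and matplotlib 3.10.9, and the code was tested on simulated data.

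The members, regions and tests were chosen with earlier results of these data known. The sites named are the 25 strongest of III, the 5 strongest of its densest segment, its 5 widest, its strongest found in neither replicate, and its group of close peaks with the most members. Others were named after their values were seen.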

Additional observations from a re-analysis of the deposited data

How the results depend on the processing

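Of 56 alternatives over 9 results, 40 left a result on its side of the threshold in the same direction, or moved it by less than the spread. Differences are III minus the other chromosomes, in percentage points. Of the rest, 4 changed sign, none of them past the threshold under either setting. Replicate 1 sites found in replicate 2 gave 0.813 as reported, -0.561 with a −log10 q of 5 or more in every list and -0.199 without the densest segment. The share in the centre gave 3.77 without that segment, which lies outside the centre, so that leaving it out raises the share by construction, and strong peaks gave 2.66 with a limit of 10. The share in the centre passed the threshold with the middle 33.3% of the span, at -7.65. The difference in broad peaks lost it with limits of 2000 bp (-2.79) and 800 bp (-6.41), with autosomes only (-4.80), with a −log10 q of 5 or more (-6.16) and without the densest segment (-4.38), and lay between -11.1 and -5.84 in the single-replicate lists, where replicate 2 alone lost it. Close neighbours lost it with gaps under 2000 bp (4.97) and with gaps under 10% of the mean (0.573), and ran from 3.85 to 8.18 in single replicates, where replicate 1 alone lost it. Peaks per Mb on III were 24.2, and 10.7 to 13.1 in the shorter lists of single replicates. Scaling by the mean gap takes out the density of each chromosome but does not fix the shares in advance. Apart from leaving out the segment for the centre, which acts by construction, the cause of these changes was not tested. The densest segment was chosen to be left out after the data were seen. No paired analysis was possible because no values of the input samples, the other group with these replicate numbers, were used. With depth unknown, absence from a list means only that a site missed that list's limit, not that it was unbound.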

Other observations

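The versions of the replicate 1 list differ at few sites on III. Of 148 distinct lines on III, 145 were written 3 times, 2 were written 2 times and 1 was written once. The line written once spans 62350 to 63033 with a −log10 q of 8.59, and a line written 2 times spans 62354 to 63004 with 9.53, so they are versions of one site. That site was also the strongest replicate 1 site of III with no counterpart in replicate 2, and its combined value, 7.08, was below that of replicate 1. The other line written 2 times spans 835094 to 836369 with 4.41 and is the only replicate 1 site in the second widest peak of III, so that peak counts as found in both replicates only in the version used here.

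The strongest replicate 2 site of III with no counterpart in replicate 1 lay at 10216380 to 10217171, where replicate 2 had 9.53 and the combined list 11.2. Elsewhere, unshared replicate 2 sites reached 15.4. The closest neighbours on III were 201 bp apart, with one peak ending at 10460848 and the next beginning at 10461050. Across the 332 peaks of III, Spearman's rho between width and −log10 q was 0.353, and between distance to the nearest peak and −log10 q it was -0.0237, both as descriptions of one list.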
